A study of Mus musculus with 12 samples.

Results

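Mammalian mitochondria carry their own small circular genome, which encodes core subunits of the respiratory chain, and the RNA-seq data described here give the transcripts of 9 of its protein-coding genes in mouse bone marrow-derived macrophages. The 9 genes were mt-Nd1, mt-Nd2, mt-Nd4, mt-Nd5, mt-Nd6, mt-Co1, mt-Co2, mt-Co3 and mt-Cytb. They were taken by name and are 9 of the 13 protein-coding genes of the mitochondrial chromosome and 9 of the 56941 genes in the count tables. The other 4, mt-Nd3, mt-Nd4l, mt-Atp6 and mt-Atp8, were not among the genes chosen. All 9 had enough counts to be tested in every comparison.

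The cells came from C57BL/6J mice, either wild type (WT) or lacking the microRNA miR-210 (KO), and both genotypes were bred from heterozygous parents. The deletion had been made by crossing mice with a floxed miR-210 locus to Gata-1 Cre mice. Bone marrow monocytes were enriched by removing other cells, grown into resting macrophages (M0) in medium conditioned by L929 cells, and polarized towards the reparative M2 state with interleukin 4 (IL-4) at 20 ng/mL. There were 3 libraries in each of the 4 groups, WT M0, KO M0, WT M2 and KO M2, and the labels of the groups differed in genotype, state and batch name. The deposited labels name 1 batch per group, which leaves batch and group confounded, and they do not say whether the libraries of a group came from separate animals or cultures, so p-values measure the spread between these libraries only.

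Each library held 7930525 to 10167695 counts over all genes. The miR-210 hairpin gene Mir210 was counted 1 to 5 times per WT library and was at 0 in all 6 KO libraries. All 7 macrophage markers, among them Adgre1, Csf1r and Cd68, had at least 10 counts in every library, and their summed level was 8566 to 9899 CPM (counts scaled by the size of the library, TMM normalized) in the M0 libraries and 7316 to 8022 in the M2 libraries. The 4 IL-4 response markers summed to 1547 to 2085 CPM in M0 and 6420.4 to 7066 in M2. The lists for neutrophils, B cells, T and NK cells, erythroid cells and fibroblasts summed to at most 4.62 CPM in any library, with Ly6g, Ms4a1, Cd3e, Cd3g and Ncr1 at 0 in all 12. The dendritic cell list summed to 0.309 to 0.942 CPM in M0 and 10.1 to 17.9 in M2. Its gene Zbtb46 had 2 to 6 counts per M0 library and 88 to 143 per M2 library, where it made up nearly all of the sum. The macrophage, IL-4 response and dendritic cell levels moved with the state, and their part in the results was not tested.

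The mitochondrial genome is transcribed from both strands as long precursors, which are cut into single messenger RNAs at the transfer RNAs that lie between most genes. Complex I passes electrons from NADH into the respiratory chain, complex III passes them on to cytochrome c, and complex IV passes them to oxygen. Each of the 3 complexes is built from mitochondrially and nuclear-encoded subunits, so both genomes have to supply it. In macrophages, IL-4 polarization is known to go with oxidative metabolism, and miR-210 is known as a microRNA induced by low oxygen that targets factors of mitochondrial respiration.

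All coordinates are on GRCm39, where M is the mitochondrial chromosome. Complex I was represented by mt-Nd1 (ENSMUSG00000064341, positions 2751 to 3707), mt-Nd2 (ENSMUSG00000064345, 3914 to 4951), mt-Nd4 (ENSMUSG00000064363, 10167 to 11544), mt-Nd5 (ENSMUSG00000064367, 11742 to 13565) and mt-Nd6 (ENSMUSG00000064368, 13552 to 14070). Complex III was represented by its cytochrome b, mt-Cytb (ENSMUSG00000064370, 14145 to 15288). Complex IV was represented by its catalytic subunit mt-Co1 (ENSMUSG00000064351, 5328 to 6872) and by mt-Co2 (ENSMUSG00000064354, 7013 to 7696) and mt-Co3 (ENSMUSG00000064358, 8607 to 9390). Each is annotated as 1 exon without introns. The annotation places mt-Nd6 on the minus strand and the other 8 on the plus strand, and mt-Nd5 and mt-Nd6 overlap at their ends on opposite strands, which the strand-specific counting keeps apart.

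The nuclear genome holds copies of mitochondrial DNA, and reads from a stretch held by both genomes cannot be assigned to either by sequence. On chromosome 1, the minus strand from 24650616 to 24655269 matched positions 6390 to 11042 of the mitochondrial chromosome over 4653 aligned bases, with 2 substitutions and 1 base found only in the copy. The substitutions were A6393T, in mt-Co1 at the edge of the copy, and T9461C, in mt-Nd3 (mitochondrial base, position on M, nuclear base). Neither fell in mt-Co2, mt-Co3 or the copied part of mt-Nd4. The base found only in the copy lay at position 9821 of M, in the transfer RNA gene between mt-Nd3 and mt-Nd4l. The copy takes up 483 of the 1545 bases of mt-Co1, all 684 bases of mt-Co2, all 784 of mt-Co3 and 876 of the 1378 of mt-Nd4.

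The edges of the copy are shown because they separate the shared from the unshared part of mt-Co1 and mt-Nd4. The capitals mark the shared side, and the lower case marks the side where the mitochondrial and nuclear sequences part. The start of the copy lies at M:6340-6439 and, on the minus strand, at chr1:24655220-24655319, and its end at M:10993-11092 and chr1:24650566-24650665. All sequences are given 5′ to 3′ on the strand of the mitochondrial gene.
mt-Co1, mitochondrial: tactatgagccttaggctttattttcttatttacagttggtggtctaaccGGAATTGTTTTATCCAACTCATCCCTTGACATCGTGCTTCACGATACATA
mt-Co1, chromosome 1: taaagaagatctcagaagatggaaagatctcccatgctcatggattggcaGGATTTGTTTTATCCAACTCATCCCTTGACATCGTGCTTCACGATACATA
mt-Nd4, mitochondrial: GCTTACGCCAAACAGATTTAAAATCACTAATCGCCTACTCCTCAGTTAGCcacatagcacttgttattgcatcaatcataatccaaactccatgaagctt
mt-Nd4, chromosome 1: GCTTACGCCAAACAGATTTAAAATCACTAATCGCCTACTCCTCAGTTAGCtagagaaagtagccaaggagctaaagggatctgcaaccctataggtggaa

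In mt-Co2 and mt-Co3 no edge exists, because the copy is identical from the first base to the last. Their first 60 bases, given next, read the same at M:7013-7072 and chr1:24654587-24654646 for mt-Co2 and at M:8607-8666 and chr1:24652993-24653052 for mt-Co3.
mt-Co2, both genomes: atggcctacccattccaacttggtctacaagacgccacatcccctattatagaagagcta
mt-Co3, both genomes: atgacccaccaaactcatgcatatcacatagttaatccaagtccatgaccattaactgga

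Cutting each gene into every possible stretch of 50 bases showed how much of it also occurs elsewhere in the genome. This share was 100% for mt-Co2 and mt-Co3, 62.2% for mt-Nd4, 51.1% for mt-Co1, 8.29% for mt-Nd2, 7.61% for mt-Nd5 and 0% for mt-Nd1, mt-Nd6 and mt-Cytb. For mt-Co1, a copy on chromosome 2 (Gm13340, 22478115 to 22479659) added to the one on chromosome 1. With stretches of 150 bases the shares were still 100% for mt-Co2 and mt-Co3, 59.2% for mt-Nd4 and 23.6% for mt-Co1, and 0% for the other 5. The annotated nuclear copy with the most shared stretches was Gm29216 for mt-Co1, Gm28661 for mt-Co2, Gm28437 for mt-Co3, Gm28439 for mt-Nd4, Gm13339 for mt-Nd2 and Gm4076 for mt-Nd5, all of them pseudogenes.

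**Figure D1:**
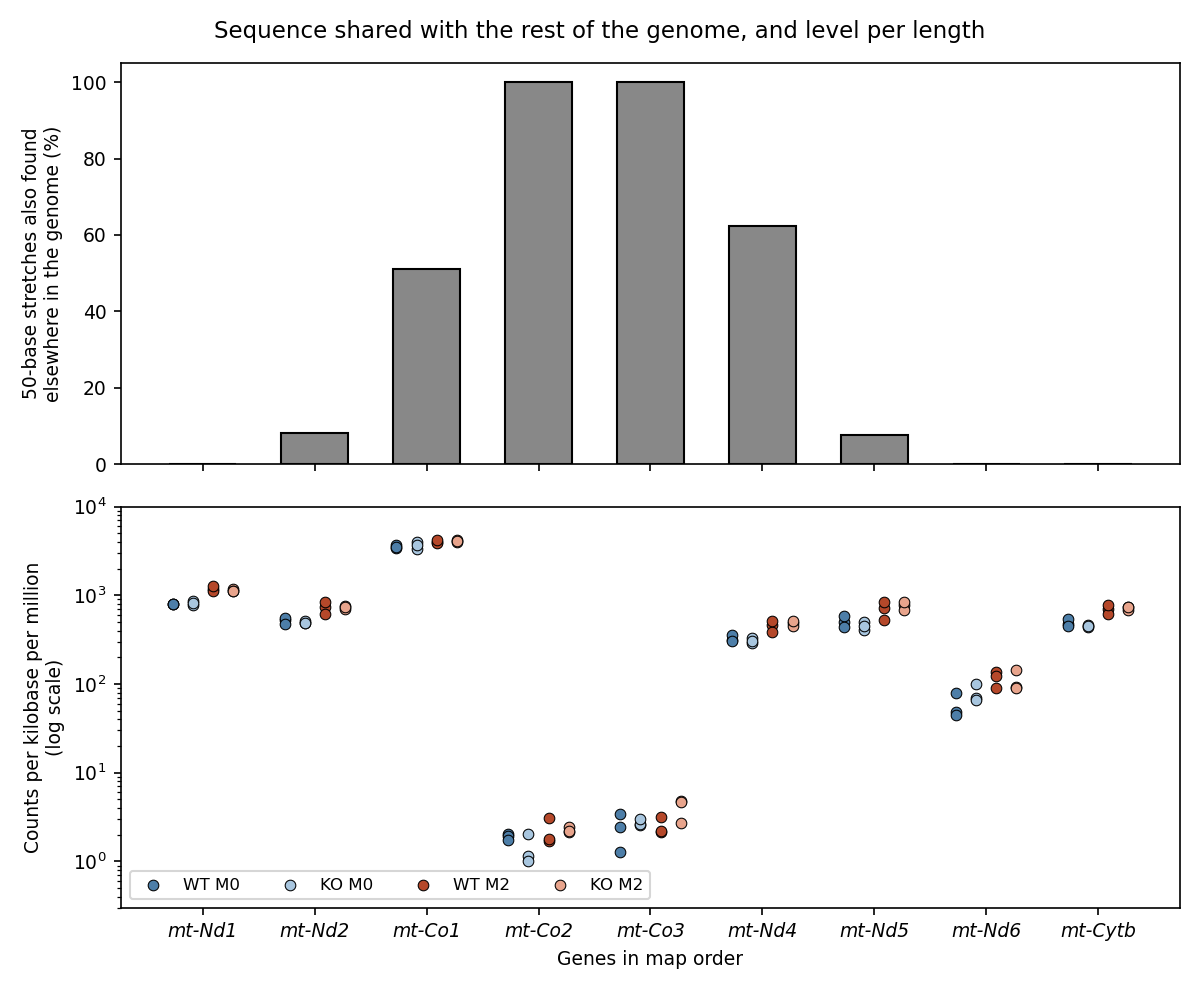
Upper plot, percent of each gene's 50-base stretches that also occur elsewhere in the genome; lower plot, CPM per kilobase of exon in each of the 12 libraries, on a log scale, with 1 point per library coloured by group. The 2 genes at 100% shared, mt-Co2 and mt-Co3, lie between 1.02 and 4.84 in every library, while mt-Co1 lies between 3322 and 4206.

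The 9 genes together took 0.885% ± 0.029 of all counts in WT M0, 0.887% ± 0.030 in KO M0, 1.07% ± 0.079 in WT M2 and 1.09% ± 0.041 in KO M2 (SD, n = 3 each). Every M2 library, at 0.988% to 1.15%, lay above every M0 library, at 0.856% to 0.921%, and the 2 genotypes overlapped within each state. In bulk RNA, fewer cells that express a gene and less RNA per cell cannot be told apart. Most of these counts came from mt-Co1, with 62.5% ± 2.5 of the 9-gene total in WT M0, 64.3% ± 2.7 in KO M0, 57.3% ± 2.7 in WT M2 and 56.9% ± 0.58 in KO M2. By raw counts mt-Co1 ranked 2 or 3 among all genes in each library.

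Levels between genes were compared per length, as CPM per kilobase of exon. In WT M0 the order was mt-Co1 (3523 ± 125), mt-Nd1 (801 ± 8.28), mt-Nd2 (520.0 ± 37.8), mt-Nd5 (507 ± 73.8), mt-Cytb (489 ± 47.2), mt-Nd4 (327 ± 28.8), mt-Nd6 (57.6 ± 19.1), mt-Co3 (2.38 ± 1.07) and mt-Co2 (1.92 ± 0.138). The neighbours mt-Nd2, mt-Nd5 and mt-Cytb lay within 1 SD of each other, as did mt-Co3 and mt-Co2, and the other steps were larger than the spread. In KO M2 the order was mt-Co1 (4097 ± 136), mt-Nd1 (1138 ± 28.8), mt-Nd5 (764 ± 76.2), mt-Nd2 (728 ± 32.3), mt-Cytb (719 ± 31.7), mt-Nd4 (489 ± 30.9), mt-Nd6 (108 ± 30.4), mt-Co3 (4.08 ± 1.17) and mt-Co2 (2.27 ± 0.157), and here too mt-Nd5, mt-Nd2 and mt-Cytb lay within 1 SD of each other.

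The low places of mt-Co2 and mt-Co3 were measured on sequence that is shared in full. The place of mt-Nd4 depended on the length it was divided by. Its 502 unshared stretches were used in place of its whole exon, as if no read from the shared part had been counted. Whether this holds was not examined. On that basis mt-Nd4 reached 898 ± 79.1 CPM per 1000 stretches in WT M0. There mt-Nd1, with no shared stretch, had 844 ± 8.73 and mt-Cytb 511 ± 49.4, so mt-Nd4 lay within 1 SD of mt-Nd1 and above mt-Cytb. On that scale mt-Co1 had 7446 ± 264 and remained the highest. mt-Nd6, the one gene on the minus strand, stayed the lowest of the 7 genes that keep unshared sequence, at 63.6 ± 21.0.

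The levels of the single genes are given next by complex, in CPM with library sizes scaled by the trimmed mean of M values (TMM) over all 12 libraries, and with libraries in the order 1 to 3 of the deposited column names. mt-Nd1 encodes a membrane subunit of complex I. It had 768, 773 and 758 CPM in WT M0 and 832, 746 and 789 in KO M0. In M2 it had 1134, 1071 and 1204 CPM in WT and 1120.1, 1077 and 1069 in KO. No M2 library came near an M0 library, and the genotypes overlapped in both states.

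mt-Nd2, another membrane subunit of complex I, had 543, 578 and 499 CPM in WT M0 and 502, 529 and 513 in KO M0. Its M2 levels were 769.7, 648 and 878 CPM in WT and 786, 719.6 and 760.0 in KO. Here WT M2 spread more widely than KO M2, and its lowest library still lay above the highest M0 library.

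mt-Nd4, one of the proton-pumping subunits of complex I, had 431, 496 and 425 CPM in WT M0 and 401, 458 and 421 in KO M0. After IL-4 it had 642, 527 and 707 CPM in WT and 681, 628 and 713 in KO. Library 2 of WT M2 was again the low one, and it still lay above all M0 libraries.

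mt-Nd5, a second proton-pumping subunit, had 919, 1061 and 792 CPM in WT M0 and 741, 910.5 and 813 in KO M0. Its M2 levels were 1311, 960.3 and 1529 CPM in WT and 1413, 1246 and 1522 in KO. This was the most variable of the abundant genes, and library 2 of WT M2 fell below library 2 of WT M0, so that the 2 WT groups overlapped.

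mt-Nd6, the complex I subunit read from the other strand, had 25.2, 41.3 and 23.3 CPM in WT M0 and 51.9, 36.2 and 33.9 in KO M0. In M2 it had 71.8, 47.1 and 63.6 CPM in WT and 74.2, 47.5 and 46.4 in KO. The KO groups overlapped between states, since library 1 of KO M0 was higher than libraries 2 and 3 of KO M2.

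mt-Cytb, the only mitochondrially encoded subunit of complex III, had 542, 619.7 and 516 CPM in WT M0 and 507, 526 and 515 in KO M0. Its M2 levels were 810.3, 713 and 901 CPM in WT and 841, 781 and 846 in KO. All 6 M2 libraries lay above all 6 M0 libraries.

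mt-Co1, the subunit that holds the oxygen-reducing site of complex IV, had 5657, 5283 and 5389.9 CPM in WT M0 and 6127, 5133 and 5636 in KO M0. In M2 it had 6236, 5985 and 6425 CPM in WT and 6498, 6094 and 6398 in KO. The step between states was small beside that of the complex I genes, and library 1 of KO M0 exceeded library 2 of KO M2.

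mt-Co2, which carries the site that takes electrons from cytochrome c, was counted at 11, 13 and 12 reads in WT M0, 7, 15 and 7 in KO M0, 18, 11 and 10 in WT M2 and 12, 16 and 12 in KO M2. mt-Co3, the third core subunit of complex IV, was counted at 8, 26 and 19 reads in WT M0, 18, 22 and 24 in KO M0, 21, 16 and 14 in WT M2 and 31, 35 and 17 in KO M2. With so few counts, only large differences in these 2 genes would have been detectable.

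**Figure D2:**
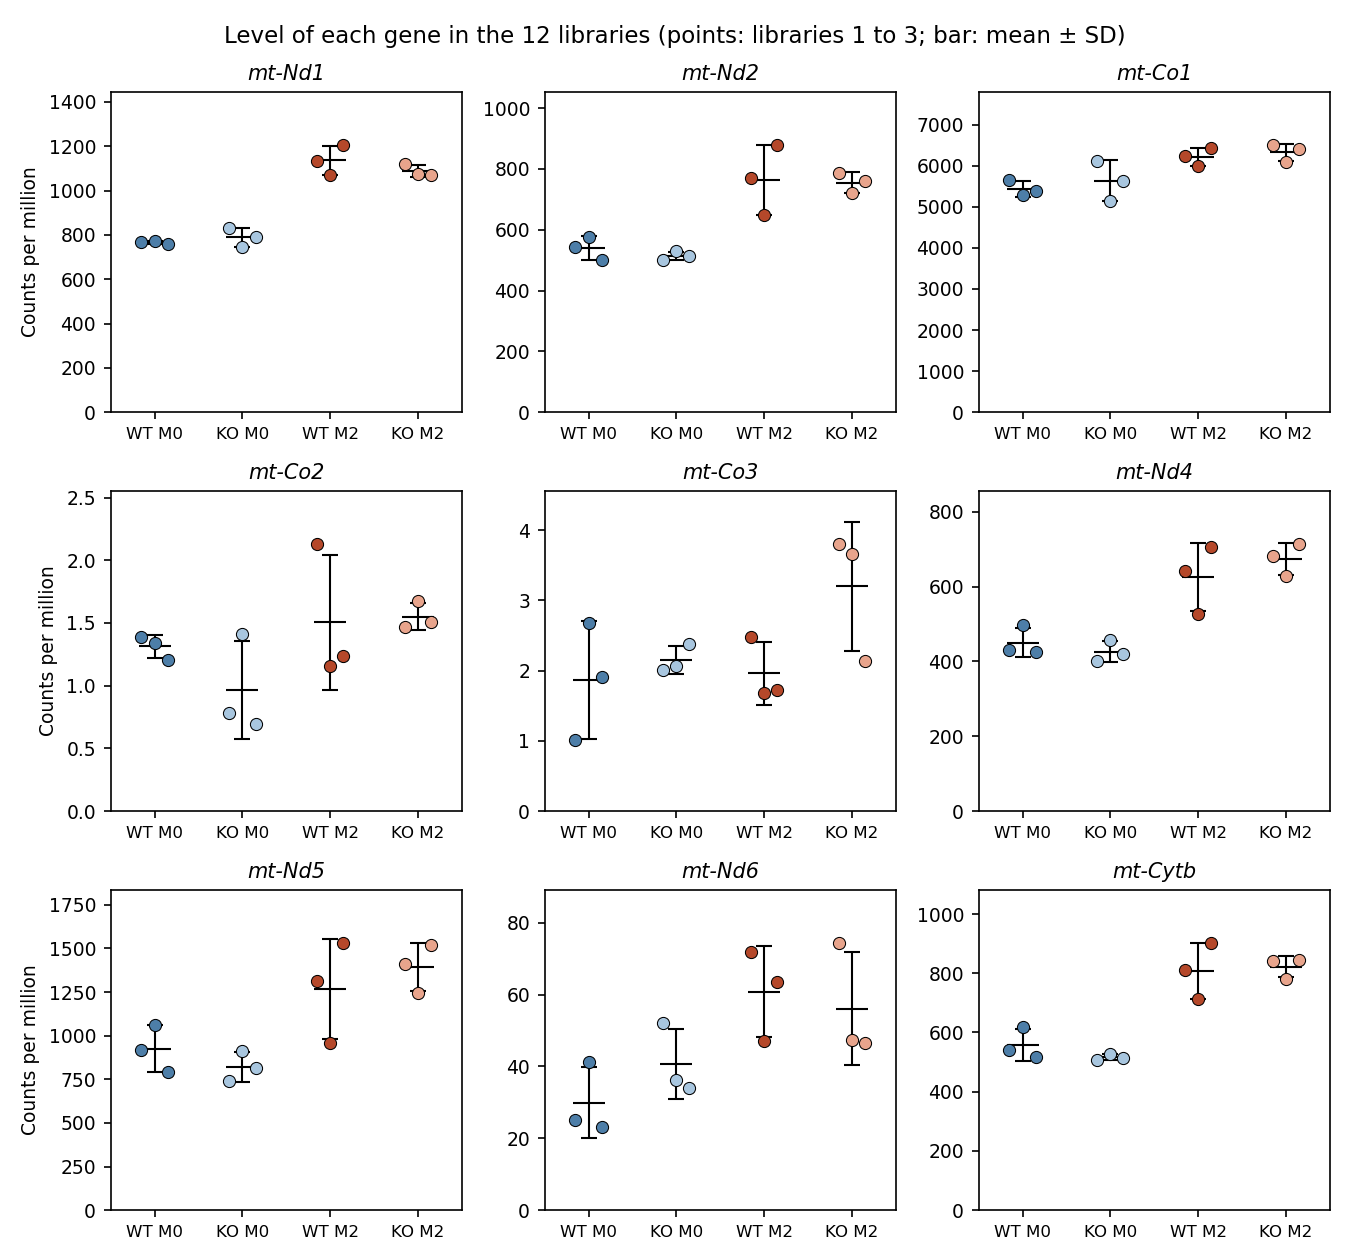
TMM-scaled CPM (y axis, from 0, scaled per gene) of each of the 9 genes in the 4 groups (x axis), with 1 point per library and a bar for the mean ± SD of 3 libraries. The M2 mean stands above the M0 mean of the same genotype in all 9 genes, but single libraries overlap for mt-Nd5, mt-Co2 and mt-Co3 in WT and for mt-Nd6, mt-Co1 and mt-Co3 in KO, and the 2 genotypes overlap within each state.

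In the WT groups single libraries stood out over most genes, ranked here by CPM. Library 2 of WT M2 was the lowest of its group for all 9 genes, and library 3 of WT M2 was the highest for 6. For mt-Co2 and mt-Co3 the lowest place was a matter of scaling, since their raw counts were lowest in library 3 of WT M2. Library 2 of WT M0 was the highest of its group for 7 of the 9 but the lowest for mt-Co1. Library 3 of WT M0 was the lowest of its group for 7. In the KO groups no library was the lowest or the highest of its group for more than 5 of the 9. As a ratio within each library, mt-Nd5 counts per 100 mt-Co1 counts were 16.3, 20.1 and 14.7 in WT M0, 12.1, 17.7 and 14.4 in KO M0, 21.0, 16.0 and 23.8 in WT M2 and 21.7, 20.4 and 23.8 in KO M2. The 2 KO groups did not overlap in this ratio and the 2 WT groups did. Other ratios gave other outcomes. Per 100 mt-Nd1 counts, mt-Nd5 overlapped in KO, at 89.1 to 122 in M0 and 116 to 142 in M2, and also in WT. Per 100 mt-Nd5 counts, mt-Nd6 overlapped in KO, at 3.97 to 7.01 in M0 and 3.05 to 5.25 in M2. In WT it did not, at 2.74 to 3.89 and 4.16 to 5.48. No ratio was tested between genotypes. Library 2 of WT M2 also had 25 counts of the red-cell globin gene Hbb-bs, against 0 and 1 in the other libraries of that group. In WT M0, libraries 1 to 3 had 17, 7 and 0 counts of Hbb-bs. The part of red-cell RNA in the mitochondrial levels was not tested.

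**Figure D3:**
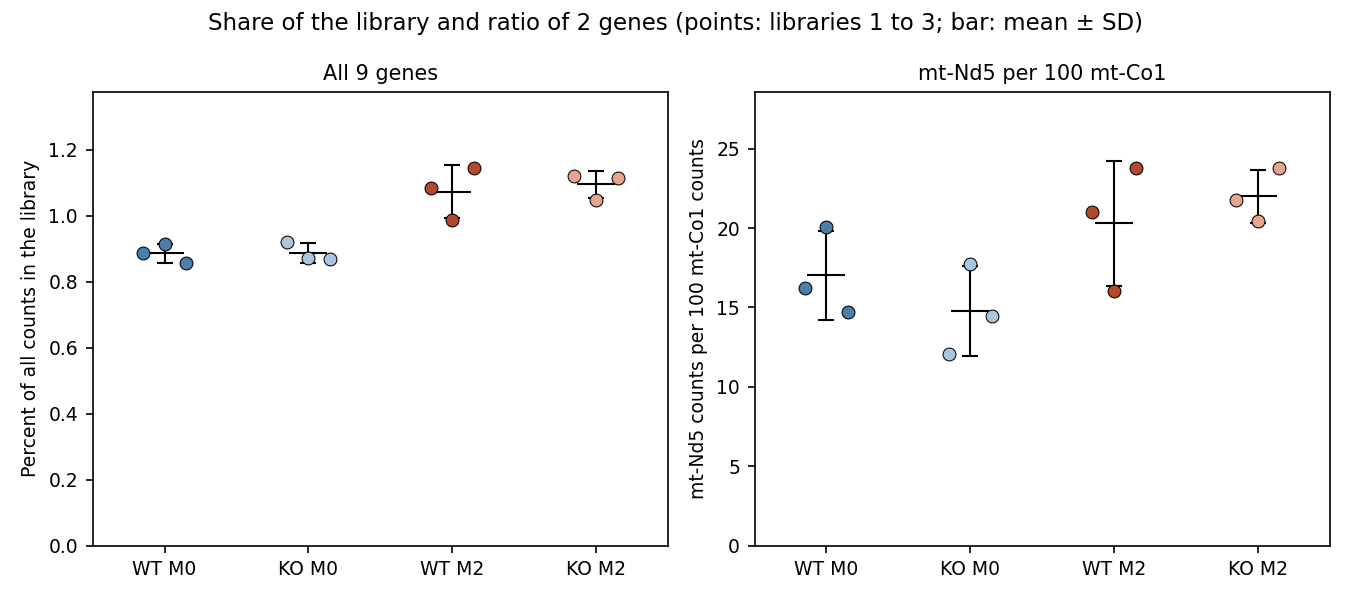
Left, percent of all counts in each library that fell on the 9 genes; right, mt-Nd5 counts per 100 mt-Co1 counts, each with 1 point per library and a bar for the mean ± SD of 3 libraries. The share was 0.856% to 0.921% in the M0 libraries and 0.988% to 1.15% in the M2 libraries, and the ratio ran from 12.1 to 23.8.

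The first question of the design was whether loss of miR-210 changes macrophages before polarization. In KO M0 against WT M0, none of the 9 genes passed the threshold (an adjusted p under 0.05 and a fold change over 1.2 in either direction, edgeR quasi-likelihood test with Benjamini-Hochberg adjustment over all genes), and 0 of 9 had an unadjusted p under 0.05. Over all genes, 65 of 14089 passed, or 0.461%. DESeq2 also called 0 of the 9, with 1 (mt-Nd6) at an unadjusted p under 0.05. The 9 genes had a median log2 difference of -0.07, beside 0.00 over all genes, and 4 of the 9 differences were positive.

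The intervals show how large a genotype effect these libraries could still hold. For the abundant genes, the log2 difference between KO M0 and WT M0 was 0.04 (95% interval -0.13 to 0.21) for mt-Nd1, -0.07 (-0.25 to 0.11) for mt-Nd2, 0.05 (-0.16 to 0.25) for mt-Co1, -0.08 (-0.28 to 0.12) for mt-Nd4, -0.17 (-0.43 to 0.08) for mt-Nd5 and -0.12 (-0.31 to 0.08) for mt-Cytb. None of these intervals reached a change of 1.5-fold in either direction. mt-Nd6 had the largest positive value, 0.43 (-0.03 to 0.89), with an adjusted p of 0.540 from edgeR. Single libraries moved this difference both ways: it was 0.75 without library 2 of WT M0 (edgeR adjusted p = 0.0345), 0.28 without library 3 of WT M0 (adjusted p = 0.795) and 0.23 without library 1 of KO M0 (adjusted p = 0.941). Across the alternatives for this difference, the adjusted p ran from 0.0111 to 0.941. The intervals of mt-Co2 (-1.23 to 0.39) and mt-Co3 (-0.56 to 0.91) were too wide to bound a change of that size.

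The same question was asked after polarization. In KO M2 against WT M2, 0 of 9 genes passed, beside 137 of 13980 over all genes, or 0.98%. DESeq2 called 0 of 9, with 0 at an unadjusted p under 0.05, and edgeR had 1 of 9 at that level. The median log2 difference of the 9 was 0.03, beside 0.00 over all genes. The values were -0.06 (-0.17 to 0.05) for mt-Nd1, -0.02 (-0.19 to 0.16) for mt-Nd2, 0.03 (-0.07 to 0.13) for mt-Co1, 0.11 (-0.07 to 0.29) for mt-Nd4, 0.14 (-0.11 to 0.39) for mt-Nd5, -0.12 (-0.46 to 0.23) for mt-Nd6 and 0.03 (-0.12 to 0.18) for mt-Cytb. In neither state were the CPM of any of the 9 free of overlap between genotypes, beside 14.3% of all tested genes in M0 and 16.2% in M2. With only 9 genes, this does not set them apart from all genes.

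The gene at an unadjusted p under 0.05 was mt-Co3, at 0.72 (0.12 to 1.31) in KO M2 against WT M2, with an edgeR adjusted p of 0.333. Its nuclear copy went the other way. The WT libraries had 11, 16 and 12 reads on Gm28437 before IL-4 and 17, 10 and 10 after it, and the KO libraries 1, 5 and 1 before and 5, 3 and 2 after. The difference of the copy in M0 was -2.53 (-3.66 to -1.39), with an edgeR adjusted p of 0.0677, and in M2 the copy did not pass the filter on low counts.

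Of the counts on mt-Co3 and Gm28437 together, the copy took 42.4% in WT M0 (Wilson 95% interval 32.8 to 52.6, 92 counts) and 42.0% in WT M2 (32.3 to 52.5, 88 counts). In KO M0 it took 9.86% (4.86 to 19.0, 71 counts) and in KO M2 10.8% (5.95 to 18.7, 93 counts). These intervals cover counting error only. With the copy's counts added to it, mt-Co3 differed by 0.10 between KO M2 and WT M2 (edgeR adjusted p = 0.942) and by -0.47 between KO M0 and WT M0 (edgeR adjusted p = 0.638), so that the sign in M0 turned.

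The copies of mt-Co2, mt-Co1 and mt-Nd4 are given next. For mt-Co2, Gm28661 took 14.3% of the joint counts in WT M0 (6.72 to 27.8), 29.3% in KO M0 (17.6 to 44.5), 15.2% in WT M2 (7.57 to 28.2) and 11.1% in KO M2 (4.84 to 23.5). For mt-Co1 and mt-Nd4, the chromosome 1 copies had at most 13 and 4 counts in a library, beside 44748 to 58269 counts on mt-Co1 and 3407 to 6009 on mt-Nd4. A wider split was found in 2 genes outside the 9, which were chosen after their values were seen. For mt-Nd3, next to mt-Co3 and with the substitution T9461C, the copy Gm28438 took 97.9% of the joint counts in WT M0 and 98.3% in WT M2, against 0.763% in KO M0 and 2.44% in KO M2. For mt-Nd4l, the copy Gm10222 took 96.9% and 97.5% in WT M0 and WT M2, against 6.06% and 6.25% in KO M0 and KO M2. In both states the split of these 2 genes followed the genotype. The bases that the libraries carry at positions 9461 and 9821 were not examined. Whether the WT and KO mice differed in mitochondrial sequence was therefore not tested, and the genotype comparisons of the 9 genes carry that limit.

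**Figure D4:**
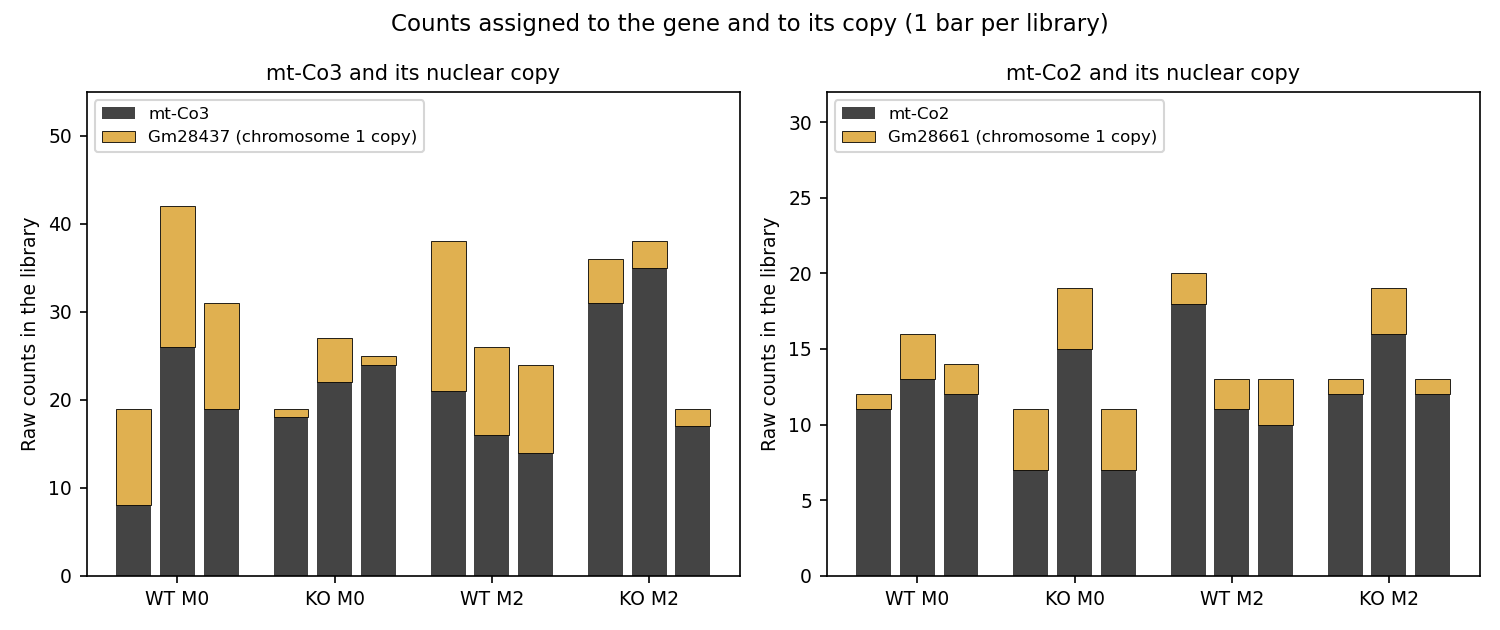
Raw counts (y axis) assigned to mt-Co3 and its chromosome 1 copy Gm28437 (left) and to mt-Co2 and Gm28661 (right), stacked, with 1 bar per library in the 4 groups. The copy of mt-Co3 has 10 to 17 counts in the WT libraries and 1 to 5 in the KO libraries, and the copy of mt-Co2 has 1 to 4 throughout.

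The second question was how IL-4 polarization changes each genotype, in comparisons that share their libraries with the genotype comparisons above. In WT M2 against WT M0, 6 of the 9 genes rose and none fell, beside 3149 of 14266 genes called higher, or 22.1%. All 5 complex I genes were among the 6. mt-Nd6 rose most, by a log2 fold change of 1.01 (SE 0.19, 2.02-fold, edgeR adjusted p = 0.000627). mt-Nd1 rose by 0.57 (SE 0.07, 1.48-fold, edgeR adjusted p = 8.78e-06), the smallest adjusted p of the 9.

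The other 4 rose by similar amounts. The log2 fold change was 0.50 for mt-Nd2 (95% interval 0.29 to 0.71, edgeR adjusted p = 0.000843), 0.47 for mt-Nd4 (0.26 to 0.68, adjusted p = 0.00145) and 0.45 for mt-Nd5 (0.15 to 0.76, adjusted p = 0.0174). mt-Cytb rose by 0.53 (0.33 to 0.73, edgeR adjusted p = 0.000321). The call on mt-Nd5 was the least firm. It was lost with DESeq2 (adjusted p = 0.120) and when library 3 of WT M0, library 1 of WT M2 or library 3 of WT M2 was left out, at log2 values of 0.35, 0.43 and 0.30, with edgeR adjusted p of 0.0957, 0.0599 and 0.101.

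The complex IV genes did not pass the threshold. mt-Co1 was higher by 0.19 (0.04 to 0.34), with an edgeR adjusted p of 0.0363 but a fold change of 1.14, under the limit. mt-Co2 differed by 0.19 (-0.51 to 0.89) and mt-Co3 by 0.03 (-0.69 to 0.76). The 9 genes had a median of 0.47, beside 0.00 over all genes. In 6 of the 9 all WT M2 libraries lay above all WT M0 libraries, a pattern that 28.7% of all tested genes showed. These 6 included mt-Co1 and left out mt-Nd5.

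In KO M2 against KO M0, 5 of the 9 genes rose and none fell, beside 2496 of 14331 genes called higher, or 17.4%. mt-Nd5 rose most, by 0.75 (SE 0.10, 1.69-fold, edgeR adjusted p = 5.11e-05), followed by mt-Cytb at 0.66 (0.51 to 0.82, adjusted p = 9.78e-06) and mt-Nd4 at 0.65 (0.48 to 0.83, adjusted p = 3.79e-05). mt-Nd2 rose by 0.55 (0.39 to 0.70, adjusted p = 5.97e-05) and mt-Nd1 by 0.46 (0.30 to 0.61, adjusted p = 0.000244). These 5 calls held in all 15 alternatives.

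mt-Nd6, the gene with the largest rise in WT, was at 0.46 (0.05 to 0.87) in KO, with an edgeR adjusted p of 0.0787. Leaving out 1 library moved it from 0.21 without library 1 of KO M2 (edgeR adjusted p = 0.411) to 0.66 without library 1 of KO M0 (adjusted p = 0.0103). It also passed without library 3 of KO M2 (0.57, edgeR adjusted p = 0.0432) and with DESeq2 (adjusted p = 0.0489), and not without any of the other 3 libraries. mt-Co1 was at 0.16 (-0.01 to 0.33), with an adjusted p of 0.136. mt-Co2 was at 0.66 (-0.12 to 1.44, adjusted p = 0.181) and mt-Co3 at 0.57 (-0.04 to 1.18, adjusted p = 0.144). The median of the 9 was 0.57, beside -0.01 over all genes. In 6 of the 9 all KO M2 libraries lay above all KO M0 libraries, beside 24.1% of all tested genes. These 6 left out mt-Nd6 and included mt-Co2, at 0.695 to 1.41 CPM in KO M0 and 1.47 to 1.67 in KO M2. The raw counts of mt-Co2 overlapped between these groups.

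**Figure D5:**
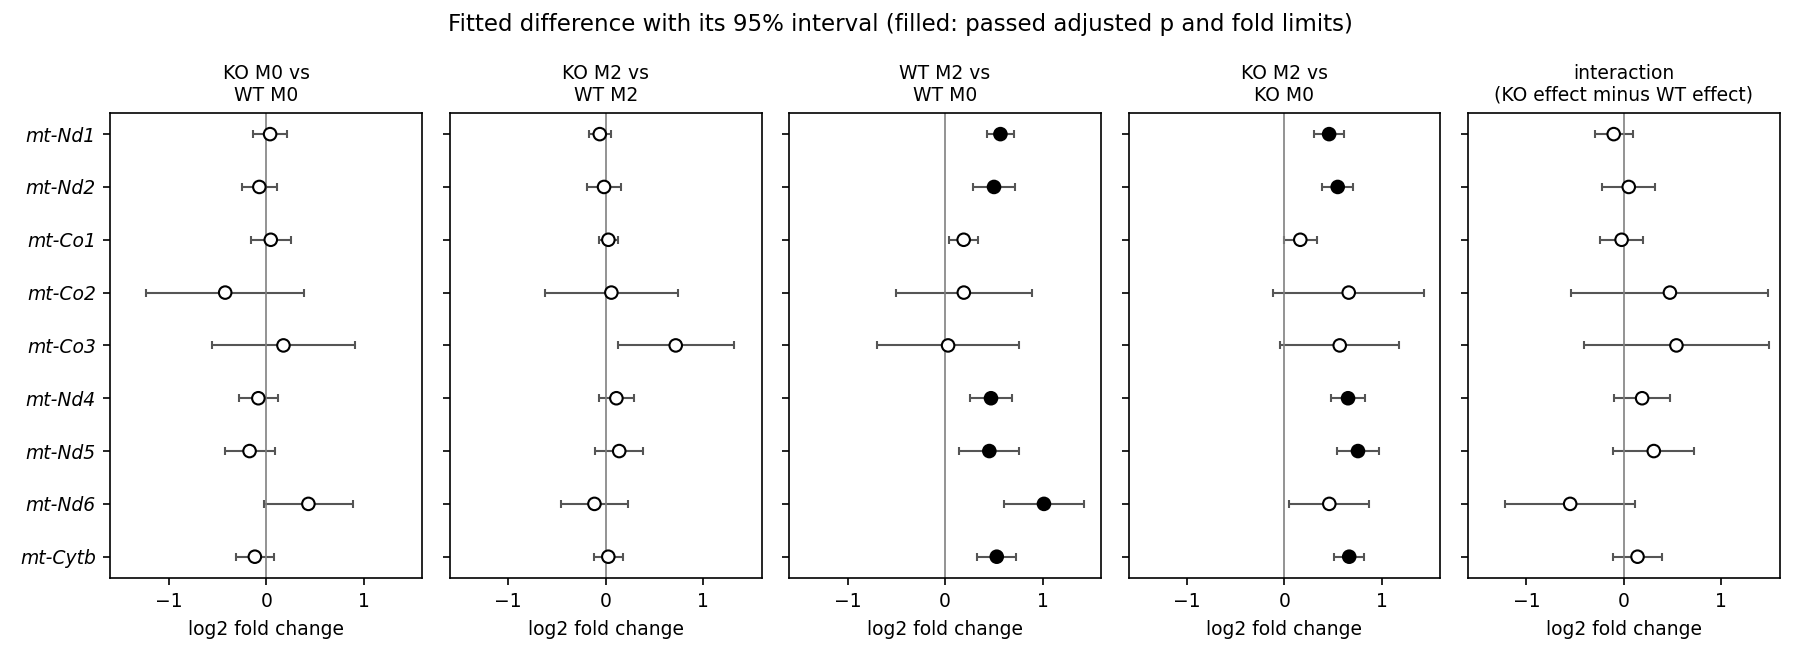
Log2 fold change (x axis) of each of the 9 genes with its 95% interval, in the 2 genotype comparisons, the 2 polarization comparisons and the interaction, with filled points for genes that passed both limits. No point is filled in the genotype and interaction plots, 6 are filled for WT M2 vs WT M0 and 5 for KO M2 vs KO M0.

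The 2 polarization effects were then set against each other, since a call in one genotype and not in the other does not show a difference. For the interaction (the log2 change in KO minus that in WT, over all 12 libraries), 0 of the 9 genes passed an adjusted p under 0.05 in edgeR, and 0 had an unadjusted p under 0.05. Over all 14825 genes none passed, or 0.0%, although 1333 had an unadjusted p under 0.05, and DESeq2 called 74 genes and none of the 9. mt-Nd6 had the lowest value, -0.55 (-1.22 to 0.12), with an edgeR adjusted p of 0.634. mt-Nd5 was at 0.31 (-0.11 to 0.72), mt-Nd4 at 0.19 (-0.10 to 0.48), mt-Cytb at 0.14 (-0.11 to 0.40), mt-Nd2 at 0.05 (-0.22 to 0.32), mt-Co1 at -0.02 (-0.24 to 0.20) and mt-Nd1 at -0.10 (-0.30 to 0.09). Leaving out 1 library moved the value of mt-Nd6 between -0.87 and -0.35, that of mt-Nd5 between 0.13 and 0.46, that of mt-Nd4 between 0.070 and 0.28 and that of mt-Cytb between 0.049 and 0.22, with no call. The intervals of mt-Co2 (-0.54 to 1.48) and mt-Co3 (-0.41 to 1.49) allowed differences of over 2-fold.

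The ribosomal RNAs of the same chromosome passed the threshold in no comparison. mt-Rnr2, the large one, was counted at 3157, 4784 and 3342 reads in WT M0, 2969, 4633 and 3383 in KO M0, 3135, 3112 and 2968 in WT M2 and 2928, 3539 and 3141 in KO M2. The high library was number 2 in both M0 groups. Its log2 change with polarization was -0.21 (-0.45 to 0.03, edgeR adjusted p = 0.142) in WT and 0.02 (-0.21 to 0.25, adjusted p = 0.920) in KO.

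mt-Rnr1, the small ribosomal RNA, changed by -0.19 (-0.51 to 0.14, edgeR adjusted p = 0.332) in WT and by 0.21 (-0.08 to 0.50, adjusted p = 0.253) in KO. These libraries were made after ribosomal RNA depletion, and that step bears on the levels of both. The 22 transfer RNA genes had at most 69 counts in a library, with 4 of them at 0 in all 12 and 12 at no more than 3. The transfer RNA gene mt-Tt passed the threshold in KO M2 against KO M0, at 1.54 (0.44 to 2.63, edgeR adjusted p = 0.0312). It had 5, 1 and 10 counts in KO M0 and 14, 13 and 14 in KO M2. In WT it had 6, 6 and 4 counts in M0 and 14, 25 and 9 in M2.

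Nuclear genes that build, express or maintain the same complexes were followed in 9 lists with 161 genes, of which 157 were tested. None passed in either genotype comparison or in the interaction by edgeR or by DESeq2, with 10, 9 and 8 of them at an unadjusted p under 0.05 in edgeR and 5, 3 and 6 in DESeq2, in that order. With polarization, 33 rose and 13 fell in WT, and 12 rose and 10 fell in KO. As shares of those tested, 21.0% rose and 8.28% fell in WT, beside 22.1% and 20.9% of all genes, and 7.64% rose and 6.37% fell in KO, beside 17.4% and 16.4% of all genes, so that the 9 lists combined were not above all genes in either direction. The lists are given by their counts, and the difference between genotypes was tested gene by gene in the interaction alone.

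No nuclear subunit gene of complexes I, III and IV fell with polarization in either genotype. In WT, 20 of the 56 tested subunit genes rose and none fell, with a median of 0.21: 8 of 36 for complex I, 5 of 9 for complex III and 7 of 11 for complex IV. The share that rose was 35.7%, beside 22.1% of all genes. Ndufa13 rose 1.52-fold (adjusted p = 3.27e-06) and Ndufv1 1.41-fold among complex I genes, Uqcrc1 1.38-fold and Uqcrh 1.38-fold in complex III, and Cox4i1 1.30-fold and Cox7b 1.44-fold in complex IV (edgeR adjusted p = 0.000811 or less for each). In KO, 5 of the 56 rose and none fell, with a median of 0.06: Ndufv2 rose 1.39-fold and Ndufa13 1.31-fold, Uqcrc1 1.36-fold and Uqcrh 1.47-fold, and no complex IV gene passed. Here the share that rose was 8.93%, below the 17.4% of all genes. The subunit genes had an interaction median of -0.13, and none of the 56 differed between genotypes by that test. Their median was 0.13 in KO M0 against WT M0 and -0.01 in KO M2 against WT M2, with 0 of the 56 called in either.

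The genes that copy and process mitochondrial RNA moved both ways. Of 26 tested, 4 rose and 4 fell in WT and 2 rose and 3 fell in KO. Pnpt1, which encodes an RNA-degrading phosphorylase of mitochondria, fell by 0.79 on the log2 scale in WT and fell by 0.60 in KO (edgeR adjusted p = 6.23e-06 and 0.000190). Fastkd3, of a family of mitochondrial RNA-binding proteins, fell by 0.60 and fell by 0.69. Hsd17b10, a subunit of mitochondrial ribonuclease P, rose by 0.72 in WT and 0.49 in KO. Tbrg4, of the same family as Fastkd3, rose by 0.58 in WT, and Tfb2m, the mitochondrial transcription factor that opens promoters, rose by 0.39 in KO.

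Among 16 genes that maintain mitochondrial DNA, 1 rose and 4 fell in each genotype. Dna2, a nuclease and helicase that also works in the nucleus, rose 3.72-fold in WT and 2.14-fold in KO. Tk2, the mitochondrial thymidine kinase, fell to 0.518 of its M0 level in WT and 0.538 in KO. Primpol, a primase and polymerase, fell by 0.80 on the log2 scale in WT, and Polg, the mitochondrial DNA polymerase, fell by 0.81 in KO.

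Of the 7 tested regulators of mitochondrial biogenesis, Ppargc1b (PGC-1beta), a coactivator known in IL-4-treated macrophages, rose 4.32-fold in WT and 3.01-fold in KO (edgeR adjusted p = 3.39e-08 and 9.30e-06), and Pprc1 fell by 0.57 on the log2 scale in WT. Of 14 translation factors, 4 rose and 1 fell in WT and 2 rose in KO, with Guf1 (0.34) and Gfm2 (0.27) up and Malsu1 (-0.30) down in WT, and Gfm2 (0.38) and Tsfm (0.38) up in KO. Among assembly factors, for complex I, Tmem126b rose (0.70 in WT, 0.87 in KO) and Ndufaf7 fell (-0.84 and -0.62) of 15 tested. For complexes III and IV, 2 rose (Ttc19 and Coa7) and 2 fell (Coa3 and Cox11) of 23 in WT, and 2 fell (Uqcc1 and Uqcc3) in KO.

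The genes outside the mitochondrial chromosome whose pattern lay nearest to the sum of the 9 were Mcoln2, Tns3, Syngr2, Acly and Aldh3b1, out of 14807 compared. Likeness was the root mean square difference of centred log2(CPM + 1) over the 12 libraries, which share their depth scaling, and it was 0.053 for Mcoln2, 0.057 for Tns3, 0.060 for Syngr2 and 0.061 for Acly and Aldh3b1. The sum of the 9 itself ran over a range of 0.49 on that scale, from 8717 ± 270 CPM in WT M0 and 8744 ± 412 in KO M0 to 10881 ± 882 in WT M2 and 11125 ± 457 in KO M2. Mcoln2, an ion channel gene, went from 91.2 CPM in WT M0 to 115 in WT M2 and from 89.8 to 111 in KO. Acly, which makes cytosolic acetyl-CoA from citrate, went from 72.7 to 91.8 CPM in WT and from 73.3 to 93.6 in KO.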

How the data were processed

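Total RNA of 12 libraries was sequenced as stranded read pairs after ribosomal RNA depletion. According to the study's methods, the authors trimmed reads with Trimmomatic, removed duplicates with Picard, aligned with STAR to GRCm39 and made the deposited raw counts per gene with featureCounts. Removing duplicates by position can lower the counts of very abundant, short transcripts, and how reads with more than 1 equally good position were counted is not given in the sources used here. The authors' deposited normalized counts (a signal: raw counts divided by 1 DESeq2 size factor per library, set within each pair of groups) served only as an alternative. The number in a column name (1 to 3) could not be tied to 1 labelled sample, so columns were mapped to groups. No column of another series was found (0).

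Genes were matched by Ensembl identifier to GENCODE on GRCm39 (56323 of 56941), and the genome and its coordinates came from the same release. Counts were tested with edgeR 4.0.16 in R 4.3.3 (TMM, filterByExpr, quasi-likelihood F test), 6 libraries per pair of groups and 12 for the interaction, with Benjamini-Hochberg adjustment over all genes tested. Calls needed an adjusted p under 0.05 and, in the pairs, a fold change over 1.2 in either direction, the limits the study used. Standard errors and 95% intervals were derived from the F statistic and its degrees of freedom. The scripts were tested on simulated data. Alternatives were DESeq2 1.42.0 (Wald test), DESeq2 size factors, library sizes without mitochondrial genes, other filters on low counts, no fold limit, copies added to their gene, a block for the library number, a joint fit of the 12 libraries, and leaving out each library. The libraries held 7930525 to 10167695 counts, of which mt-Co2 and mt-Co3, whose sequence is shared in full with chromosome 1, had 7 to 35. In the same libraries mt-Co1 had 44748 to 58269.

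The 9 genes, the pathway and marker lists and the tests were chosen with earlier results of these data known. Named were all 9 genes, mt-Rnr1 and mt-Rnr2, the nuclear copy of each gene with the most shared 50-base stretches, per pathway list at most 2 called genes in each direction and comparison with the smallest adjusted p, and the 5 genes nearest in pattern. mt-Nd3, mt-Nd4l and their copies Gm28438 and Gm10222, and also Gm13340 and mt-Tt, were named outside this rule after their values were seen.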

Additional observations from a re-analysis of the deposited data

How the results depend on the processing

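In 15 alternatives, the calls on mt-Nd1, mt-Nd2, mt-Nd4 and mt-Cytb held in both polarization comparisons. mt-Nd6 was called in 15 for WT and 5 for KO, and mt-Nd5 in 11 for WT and 15 for KO. The number of the 9 genes called was 5 to 7 for WT M2 vs WT M0, 5 to 6 for KO M2 vs KO M0 and 0 for KO M2 vs WT M2. For KO M0 vs WT M0 it was 0, but 1 (mt-Nd6, log2 0.44, edgeR adjusted p = 0.0111) with no filter on low counts, and 0 to 1 when single libraries were left out. For the interaction it was 0, but 1 (mt-Nd6, -0.56, edgeR adjusted p = 0.00961) with no filter. Without the filter, genes at very low counts enter the estimate of the spread, and the cause of these calls was not tested. With protein-coding genes as the denominator, the share of counts on the 9 genes was 0.919% in WT M0, 0.918% in KO M0, 1.11% in WT M2 and 1.13% in KO M2.

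With the nuclear copies added, the sign turned for mt-Co3 in KO M0 vs WT M0 (-0.47) and for mt-Co2 in KO M2 vs WT M2 (-0.12) and in the interaction (-0.082). The sign also turned in values near 0 when 1 library was left out. In KO M0 vs WT M0, mt-Co1 then ran from -0.012 to 0.11, mt-Co3 from -0.089 to 0.53 and mt-Nd4 from -0.14 to 0.0024. In KO M2 vs WT M2, mt-Nd2 ran from -0.13 to 0.10, mt-Co1 from -0.0014 to 0.055, mt-Co2 from -0.12 to 0.38, mt-Nd4 from -0.0018 to 0.21, mt-Nd5 from -0.029 to 0.30, mt-Nd6 from -0.37 to 0.024 and mt-Cytb from -0.058 to 0.12. In WT M2 vs WT M0, mt-Co2 ran from -0.13 to 0.37 and mt-Co3 from -0.23 to 0.37, and in the interaction mt-Nd2 ran from -0.064 to 0.15 and mt-Co1 from -0.087 to 0.035. None of these values was called.

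Whether the library numbers pair the samples was not settled. Correlations of same-numbered deviations ran from -0.268 to 0.336, and 3 libraries a group are too few to show or exclude a pairing. With the number as a replicate block, mt-Nd6 passed in KO M2 vs KO M0 (0.45, edgeR adjusted p = 0.00426), so that 6 of the 9 genes were called there, with no other call on the 9 changed, and 284 in place of 65 of all genes were called in KO M0 vs WT M0 and 290 in place of 137 in KO M2 vs WT M2. Over the other alternatives these counts ran from 20 to 532 and from 53 to 360, and that of the interaction from 0 to 341, the highest each with no filter. Without library 2 of WT M0, 302 genes were called in KO M0 vs WT M0, and without library 3 of that group 20. In the simulated data for WT M2 vs WT M0, 10.4% of the calls with the replicate block fell on unchanged genes, against 4.79% without it.

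With 3 libraries a group, 1 batch name per group and 7 to 35 counts on mt-Co2 and mt-Co3, differences in these 2 genes had standard errors of 0.28 to 0.37 on the log2 scale between pairs of groups, and effects of batch and group are confounded.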
